A study of Arabidopsis thaliana with 44 samples.

Results

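Flight was compared with ground in Arabidopsis thaliana seedlings of the line labelled bzip28, using 4 flight libraries and 4 ground libraries chosen by their labels. These are 8 of the 40 RNA sequencing libraries with values in the study's expression table, out of 44 labelled samples. The labels say that the 4 samples without a column served only for quality control. Both groups were labelled with the allele bzip28-2 in Col-0, and the labels name no other allele or agent that separates them. The flight seedlings germinated and grew for 14 days in darkness on the space station, on 60 mm plates sown with 70 to 80 seeds on medium with 0.5% sucrose. The plates of the study sat in 22 fixation units inside 4 canisters, the hardware named BRIC, and whole seedlings were preserved in RNAlater. The ground seedlings were grown in the same kind of hardware in a station simulator with an offset of 2 days. The study also holds WT, bzip60, bzip28bzip60 and ire1aire1b seedlings under both conditions. Neither run is labelled as repeated, so what the spaceflight environment does and what differs between these 2 runs cannot be told apart. The labels do not say how plates map to libraries. The p-values of the main fit use a spread pooled over the 40 libraries, and they do not measure how repeated runs would vary.

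The unfolded protein response raises the folding capacity of the endoplasmic reticulum (ER) when unfolded proteins build up there. In plants it has a pair of arms. In the first, the membrane-bound transcription factor bZIP28 is released by the ER chaperone BiP, moves to the Golgi, is cut there by proteases and enters the nucleus. In the second, the sensor IRE1 splices the messenger RNA of bZIP60, and both factors then activate genes for chaperones. The comparison asks how the transcriptome of seedlings labelled as bzip28 mutants differed between flight and ground, and whether that difference departed from the one in WT.

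The bZIP28 transcript went against the label. FPKM is the number of sequenced fragments per transcript, corrected for its length and for the size of the library, a level that can be compared between genes. BZIP28 (AT3G10800) stood at 108, 87.4, 108 and 129 FPKM in the flight libraries and at 25.1, 49.3, 37.03 and 63.5 FPKM in the ground libraries. In WT the same transcript stood at 20.7 to 24.4 FPKM in flight and 19.2 to 22.7 FPKM on the ground. The lowest bzip28 flight library held 3.44 times the level of the highest flight library of any other genotype, and 4.03 times after rescaling. On the ground that ratio was 0.787 as deposited and 1.59 after rescaling. In the bzip28bzip60 libraries, whose label names the same bzip28-2 allele, the transcript stood at only 1.75 to 5.60 FPKM. An FPKM value counts fragments over the whole gene, so a full and a truncated transcript cannot be told apart here. Whether these plants carried the labelled allele cannot be settled from such values. The samples are therefore called the libraries labelled bzip28.

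**Figure D1:**
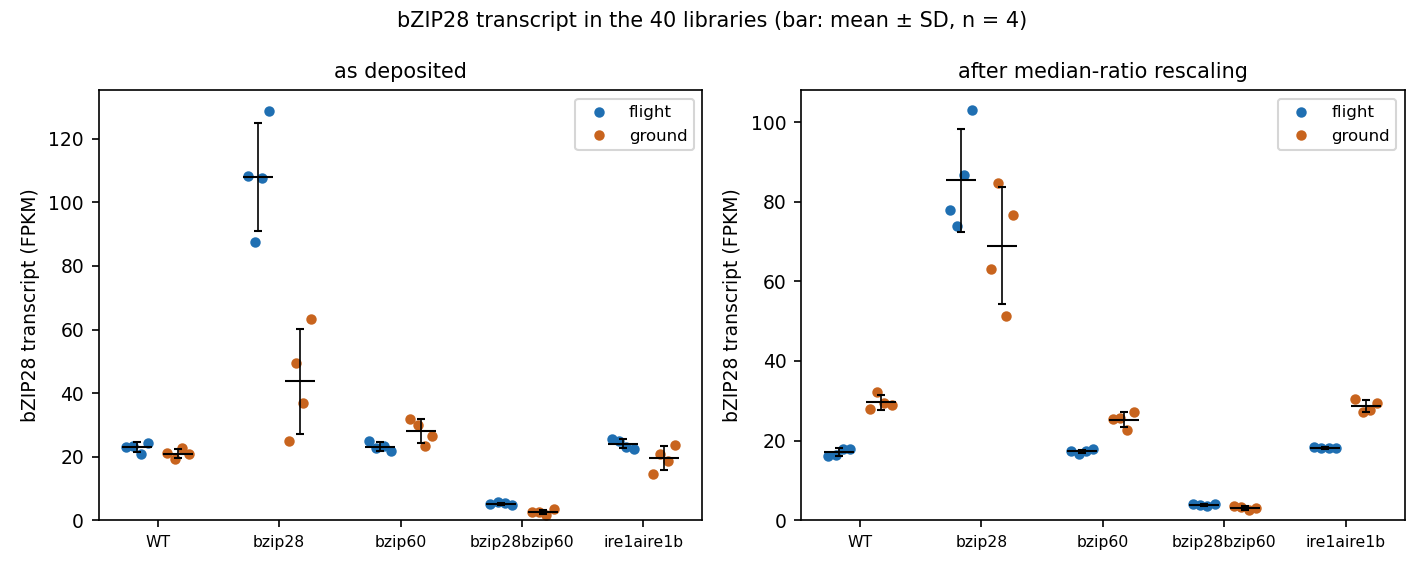
bZIP28 transcript (FPKM, linear axis) in each of the 40 libraries by genotype and condition, as deposited and after median-ratio rescaling. Points are libraries and bars give the mean ± SD of 4. As deposited, the flight libraries labelled bzip28 lie above all others, and the ground values of bzip28 reach down to 25.1 FPKM. The libraries labelled bzip28bzip60 lie lowest on both scales, and rescaling brings the flight and ground values of the bzip28 line to overlap.

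A single locus took up most of the signal on the ground. AT2G01021, annotated as an uncharacterized protein next to the ribosomal RNA genes AT2G01010 and AT2G01020 on chromosome 2, held 13.2, 35.9, 29.3 and 28.6% of the summed FPKM in the flight libraries. It held 89.9, 81.6, 77.3 and 70.7% in the ground libraries, so the groups did not overlap. FPKM is relative to the whole library, so the share of such a locus bears on every other value. Each library was also divided by its median ratio to the geometric mean of the 14104 genes above 1 FPKM in all 40 libraries. The log2 of that factor was 0.24 to 0.48 in flight and -1.33 to -0.27 on the ground. Loci listed above 0 numbered 23845 to 24661 in flight and 21491 to 22798 on the ground. The spread between libraries was wider on the ground: the median SD of a tested gene in log2(FPKM + 1) was 0.43 on the ground and 0.16 in flight as deposited, and 0.21 and 0.13 after rescaling. Lane is given in the titles. Flight replicates 1 to 4 came from lanes 4, 1, 2 and 2 and ground replicates 1 to 4 from lanes 4, 4, 3 and 3, so only lane 4 held both conditions.

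**Figure D2:**
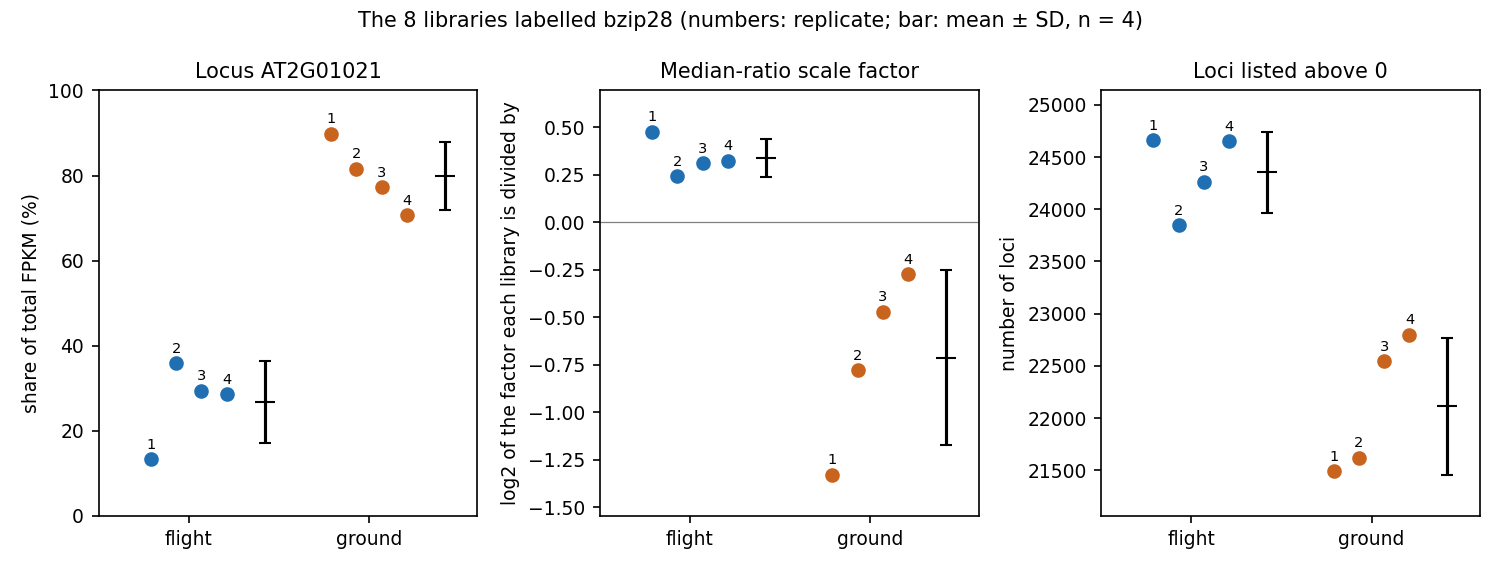
Share of summed FPKM taken by AT2G01021 (left, %), log2 of the median-ratio factor (middle) and number of loci listed above 0 (right) in the 8 libraries labelled bzip28. Numbers beside the points give the replicate and bars the mean ± SD of 4. Flight and ground do not overlap in any panel.

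The deposited and the rescaled values gave very different counts. In limma, with Benjamini-Hochberg adjustment over the 19186 genes tested and a threshold of 0.05, 15777 genes (82.2%) were higher and 361 (1.88%) lower in flight on the deposited scale. On the rescaled scale 6740 (35.1%) were higher and 4650 (24.2%) lower. The median log2 change of all tested genes was 0.97 as deposited and 0.10 after rescaling, and 2184 genes passed as higher on the deposited scale but as lower on the rescaled one. A gene is said to have risen or fallen only where it was called in the same direction on both scales, which held for 6740 genes that rose (35.1%) and 361 that fell (1.88%). The 6740 are all the genes higher after rescaling, and the 361 are all those lower as deposited. Each count was thus limited by 1 scale, and the gap between these shares depends on the shift between the scales. All log2 changes are on the log2(FPKM + 1) scale, which understates the change of genes with low levels. Without both lane 4 ground libraries, an alternative chosen after seeing the data, 5952 genes rose and 649 fell, and 344 of the 361 were among the latter. The values of flight and ground did not overlap on either scale for 5697 genes that were higher (29.7%) and 130 that were lower (0.678%). Within lane 4, where flight replicate 1 met ground replicates 1 and 2, 6685 of the 6740 and 308 of the 361 had the same sign on both scales. These libraries are among those that made the calls, so this is no independent check and does not test an effect of lane.

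Among the regulators of the unfolded protein response, BZIP28 itself was the 1 member of the 11 tested that rose, beside 35.1% of all genes, and none fell, beside 1.88%. BZIP28 had a log2 change of 1.35 ± 0.17 (SE) as deposited, with an adjusted p of 1.89e-08, and of 0.32 ± 0.10 after rescaling, with an adjusted p of 0.00794. Its rescaled values were 77.9, 73.9, 86.8 and 103 in flight and 62.98, 84.6, 51.4 and 76.7 on the ground, so on that scale the groups overlapped. The rescaled call was lost without flight replicate 4 (0.23, adjusted p 0.0638), without ground replicate 3 (0.19, adjusted p 0.0882) and with the 8 libraries fitted alone (adjusted p 0.136).

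BZIP60, the splicing target of IRE1, stood at 33.99, 37.8, 37.4 and 37.7 FPKM in the flight libraries and at 25.7, 35.02, 51.96 and 46.3 FPKM in the ground libraries, so the deposited values overlapped. Its change was -0.06 ± 0.18 as deposited (adjusted p 0.742) and -1.09 ± 0.11 after rescaling (adjusted p 5.73e-10). The table gives a level per gene and does not separate spliced from unspliced bZIP60. IRE1A stood at 36.4, 32.4, 35.1 and 35.1 FPKM in the flight libraries and at 15.7, 25.5, 30.995 and 36.4 FPKM in the ground libraries. It passed as higher on the deposited scale (0.40) and as lower on the rescaled one (-0.61), so its direction depended on the scale. The deposited limma call of IRE1A was lost with the 8 libraries alone (adjusted p 0.155) and with a pseudocount of 0.1 (0.0596). Without ground replicate 1 it was lost too (0.295), and without both lane 4 ground libraries the change was 0.046 (0.819). BZIP17, a relative of bZIP28 that is released in the same way, gave 0.47 and -0.52. S1P, a Golgi protease that cuts bZIP17, gave 0.49 and -0.47, and the NAC factor NAC062 gave 0.69 and -0.31. All 3 were called in opposite directions on the 2 scales. Without both lane 4 ground libraries the deposited limma calls of BZIP17 (adjusted p 0.176), S1P (0.192) and NAC062 (0.328) were lost. The regulators higher as deposited then went from 9, beside 82.2% of all genes in the full fit, to 4. All genes higher as deposited went from 15777 to 12393. The rescaled call of NAC062 was lost with lane as a term (0.0869). NAC089 was called lower only after rescaling (-0.89). IRE1-1 (AT5G24360, the IRE1B gene; 0.76 and -0.15), BAG7 (1.13 and 0.10), NAC103 (0.58 and 0.18) and AT4G20310, a peptidase of family M50 (0.69 and -0.07), were called higher as deposited alone. BZIP49 was not tested, with at most 0.755 FPKM in the 8 libraries.

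Of the 24 genes tested for ER chaperones and folding enzymes, 16 rose, beside 35.1% of all genes, and none fell, beside 1.88%. Their median log2 change was 1.37 as deposited and 0.35 after rescaling, beside 0.97 and 0.10 for all tested genes. SHD, the ER form of the chaperone HSP90, stood at 84.9, 83.9, 89.5 and 96.4 FPKM in the flight libraries and at 16.4, 18.7, 28.8 and 28.1 FPKM in the ground libraries. All 4 flight values lay above all 4 ground values, and the log2 change was 1.94 ± 0.17 as deposited and 0.92 ± 0.09 after rescaling, where the means were 70.3 ± 6.70 and 36.8 ± 4.50 (SD, n = 4; adjusted p 3.49e-10). CRT1a, a calreticulin that binds calcium and folds glycoproteins, stood at 116, 108, 116 and 113 FPKM in the flight libraries and at 17.622, 27.1, 39.7 and 40.04 FPKM in the ground libraries. It rose by 0.87 ± 0.09 after rescaling (adjusted p 1.41e-09), again with no overlap.

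The BiP genes encode the main ER chaperones of the HSP70 family. BIP2 stood at 50.4, 41.4, 44.4 and 44.5 FPKM in the flight libraries and at 8.75, 11.3, 15.5 and 16.3 FPKM in the ground libraries, and it rose by 0.76 ± 0.08 after rescaling (adjusted p 5.46e-10). BIP1 stood at 79.3, 72.1, 73.5 and 76.1 FPKM in the flight libraries and at 16.9, 27.1, 39.3 and 39.2 FPKM in the ground libraries, and it rose by 0.32 ± 0.07 (adjusted p 1.10e-04). In both genes the flight and ground values were apart on both scales. BIP1 and BIP2 are near-identical copies whose fragments the counting could share, so the split between them is uncertain. BIP3, the copy most strongly induced by ER stress, was not tested: it stood at 0.183, 0.553, 0.361 and 0.394 FPKM in flight and at 0, 0.108, 0.713 and 0.403 FPKM on the ground.

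Protein disulphide isomerases form the disulphide bonds of secreted proteins. PDIL2-2 had the highest rescaled change of the 24, 0.97 ± 0.11, from 1.13, 1.71, 2.58 and 2.99 FPKM on the ground to 11.3, 8.33, 8.41 and 9.09 FPKM in flight. PDIL2-3 (0.61), PDIL1-2 (0.58), UNE5 (0.44), PDIL1-4 (0.37) and PDIL1-1 (0.30) rose as well on the rescaled scale. So did the co-chaperones ATERDJ2B (0.71), ATERDJ3B (0.38) and ATERDJ2A (0.19), the lectin chaperone calnexin CNX1 (0.33) and the calreticulins CRT3 (0.57) and CRT1b (0.47). The 8 others did not pass on both scales. Those were EBS1 (0.19, adjusted p 0.0504), ERO1 (0.21), SDF2 (0.18), P58IPK (0.17), PDIL1-3 (-0.01), AT5G07340 (-0.03), ERO2 (-0.03) and ATERDJ3A (-0.25), with the rescaled log2 change in brackets. ATERDJ3A was the 1 member called on neither scale. The rescaled call of ATERDJ2A was lost without flight replicate 3 (adjusted p 0.0556) or 4 (0.0894) and without ground replicate 3 (0.111) or 4 (0.133). Without both lane 4 ground libraries 14 members were higher after rescaling, in place of 16, beside 5952 of all genes, in place of 6740. The rescaled limma calls of PDIL1-1 (0.18, adjusted p 0.118) and ATERDJ3B (0.29, adjusted p 0.0512) were lost there. Over the 25 genes listed the summed rescaled level was 862 to 912 in flight and 619.6 to 704 on the ground.

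**Figure D3:**
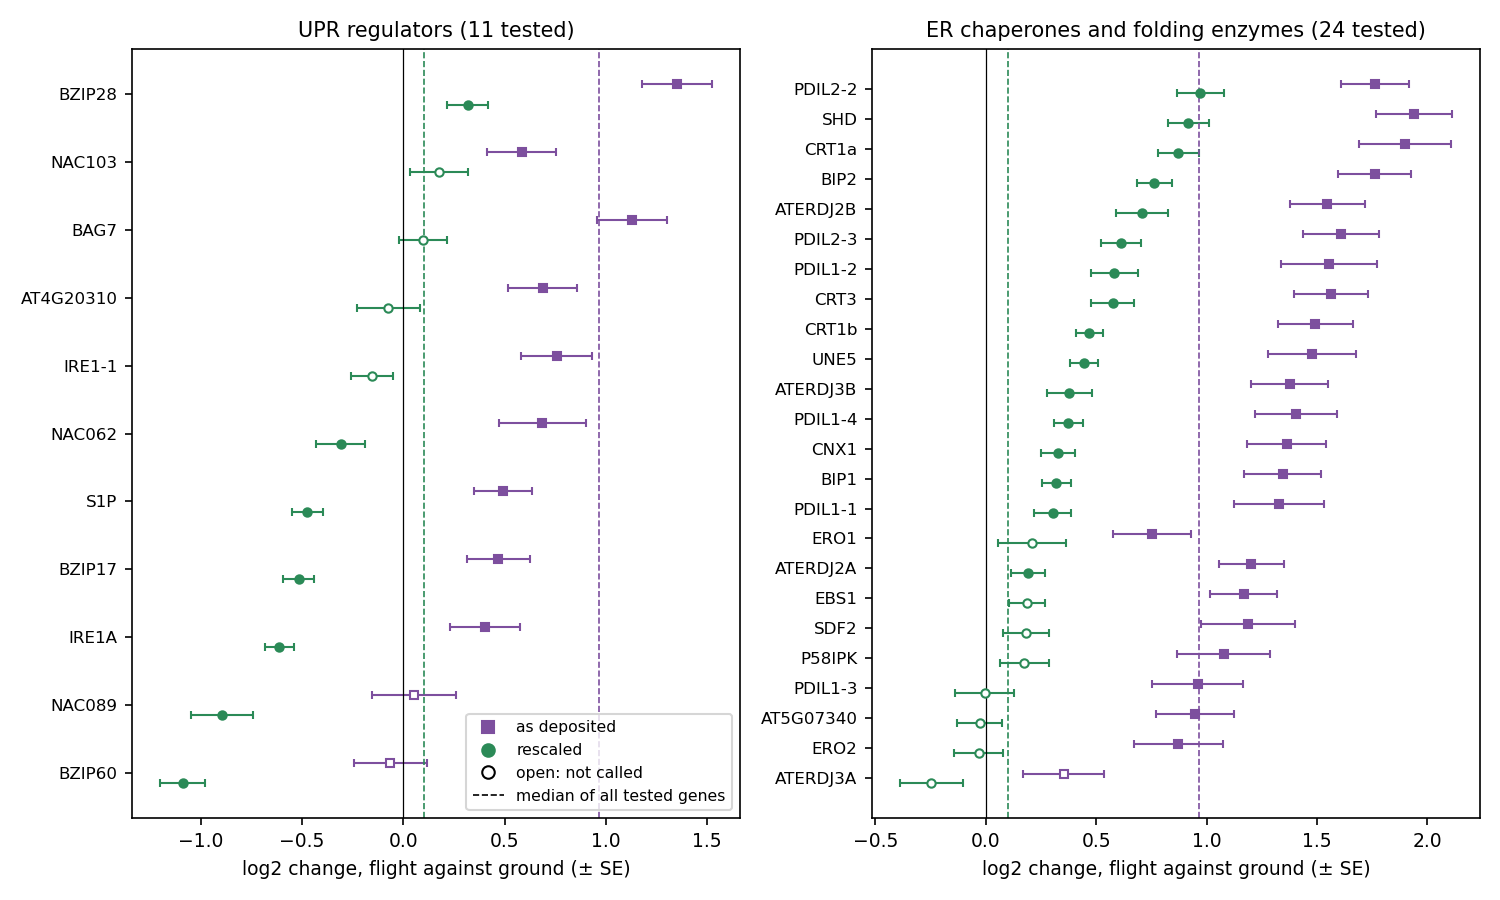
Log2 change (flight against ground, ± SE) of the 11 tested regulators of the unfolded protein response (left) and the 24 tested ER chaperones and folding enzymes (right). Squares give the deposited and circles the rescaled scale, open symbols were not called, and dashed lines mark the medians of all tested genes, 0.97 and 0.10. Most regulators lie left of both medians, while 16 chaperones and BZIP28 have filled symbols right of 0 on both scales.

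The element ERSE-I, CCAATNNNNNNNNNNCACG, is bound by bZIP28 together with NF-Y in promoters of chaperone genes. It was searched on both strands in the 300 bases upstream of the annotated gene start in the RefSeq TAIR10.1 sequence. It lay in 7 of the 25 ER chaperone promoters (28.0%), in 2 of the 14 of ER-associated degradation (14.3%) and in 0 of the 12 of the regulators. Over all 27443 protein-coding promoters it lay in 205 (0.747%). The related element ERSE-II lay in none of these lists and in 18 promoters (0.066%) overall. The fragments below show the element, in capitals and written 5′ to 3′ on the strand of the gene, for 3 genes that rose and for BIP3, which stayed near 0. Where the match is on the opposite strand it reads CGTG first and ATTGG last. BIP3 held a second match nearer its start.
SHD (chr4:12556059-12556085, minus strand): ttgctCCAATacaaaactacCACGtgg
CRT1a (chr1:21092754-21092782, minus strand): tctggCGTGtatttaactaATTGGttaac
PDIL1-2 (chr1:29126579-29126607, plus strand): tttatCCAATgaaaactctcCACGtgtat
BIP3 (chr1:2932001-2932029, minus strand): tgtcaCGTGtctgcttgtgATTGGgtact
The other ER chaperone promoters with a match were those of PDIL1-1, which rose, and of EBS1 and P58IPK, which did not pass on the rescaled scale. The 2 in ER-associated degradation were those of HRD1B (0.86 as deposited and -0.14 after rescaling) and HRD3A (0.59 and -0.42), neither of which rose. A match describes the letters only. BIP2, PDIL2-2 and CNX1 were among the chaperone genes that rose without a match in this window.

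Genes of ER-associated degradation, which removes misfolded proteins, rose in 1 of 14 tested, beside 35.1% of all genes, and none fell. That gene was AT5G43710 (MNS4), a mannosidase-like protein, at 11.2, 8.62, 8.17 and 8.86 FPKM in the flight libraries and at 1.89, 2.86, 2.51 and 3.05 FPKM in the ground libraries. Its change was 0.67 ± 0.11 after rescaling (adjusted p 3.13e-06), with no overlap. The median of the 14 was 0.64 as deposited, below that of all genes, and -0.37 after rescaling, where 8 were called lower, beside 24.2% of all genes. CDC48, the ATPase that pulls proteins out of the ER membrane, gave 0.39 and -0.65, and DER2.1, a derlin of the export channel, gave -0.18 and -1.22.

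Of the 15 largest rises, 5 were the neighbouring loci AT4G22485, AT4G22490, AT4G22513, AT4G22517 and AT4G22520 on chromosome 4, all annotated as lipid-transfer-like proteins. AT4G22490 stood at 436, 244, 153 and 256 FPKM in the flight libraries and at 0.711, 2.39, 1.02 and 4.05 FPKM in the ground libraries, and it rose by 5.74 ± 0.31 after rescaling (adjusted p 1.42e-16). AT4G22517 stood at 447, 265, 130.3 and 234 FPKM in flight, and on the ground it was listed at 0 in 3 libraries and at 0.840 FPKM in replicate 4. In all 5 loci flight replicate 1 or 2 was highest and the ground values were at most 4.05 FPKM. The loci are similar copies, so fragments may be shared between them.

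AT3G05730, a defensin-like protein, stood at 161, 157, 156 and 136 FPKM in the flight libraries and at 0.523, 1.11, 0.114 and 0.184 FPKM in the ground libraries. It rose by 6.11 ± 0.27 (adjusted p 1.26e-18), and its rescaled mean was 134 times higher in flight. Its neighbour AT3G05727, annotated as a pollen coat protein family member, stood at 862, 322, 323 and 394 FPKM in the flight libraries and at 1.95, 0, 0 and 6.42 FPKM in the ground libraries, and flight replicate 1 was far above the others. AT3G16670, an extensin-like protein, stood at 92.3, 129.9, 109 and 99.1 FPKM in flight and was listed at 0 in all 4 ground libraries (adjusted p 3.34e-21 after rescaling). AT2G34186 (117, 128, 46.1 and 45.1 FPKM) and AT2G46567 (32.8, 55.7, 14.2 and 84.1 FPKM), both uncharacterized, and the plastid locus ATCG00310 (40.8, 113, 46.998 and 128 FPKM) were also listed at 0 in every ground library. All 3 varied widely within flight.

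ESM1, which steers glucosinolate breakdown towards isothiocyanates, stood at 58.2, 79.2, 64.1 and 54.3 FPKM in the flight libraries and at 0.0318, 0.163, 0.211 and 0.116 FPKM in the ground libraries. It rose by 5.42 ± 0.22 (adjusted p 5.53e-20) and its rescaled mean was 257 times higher in flight. XTH7, an enzyme that cuts and rejoins xyloglucan in the wall, stood at 76.997, 61.2, 63.7 and 48.9 FPKM in the flight libraries and at 0.0458, 0.238, 0.337 and 0.187 FPKM in the ground libraries, a rise of 5.27 ± 0.18 (adjusted p 1.22e-21). RBCS1B, a small subunit of Rubisco, stood at 53.1, 64.4, 79.8 and 71.5 FPKM in the flight libraries and at 0.118, 0.482, 0.482 and 0.492 FPKM in the ground libraries, a rise of 5.08 ± 0.22 (adjusted p 2.82e-19). AT1G23130 completed the 15, with 60.3, 56.9, 64.9 and 59.6 FPKM in flight and at most 0.409 FPKM on the ground. The flight values of these 4 genes lay between 48.9 and 79.8 FPKM, and every ground value was at most 0.492 FPKM.

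Among the 15 largest falls, BETA-TIP, a water channel of the storage vacuole in seeds, stood at 5.04, 2.53, 5.56 and 4.48 FPKM in the flight libraries and at 24.9, 39.7, 28.9 and 50.5 FPKM in the ground libraries. Its rescaled log2 change was -3.73 ± 0.21 (adjusted p 2.20e-16), and its rescaled ground mean was 16.8 times the flight mean. ICL, isocitrate lyase of the glyoxylate cycle, which turns seed oil into sugar, stood at 29.6, 28.2, 24.3 and 36.6 FPKM in the flight libraries and at 109, 328, 119 and 316 FPKM in the ground libraries. Its change was -3.70 ± 0.28 (adjusted p 4.67e-13), and ground replicates 2 and 4 were highest. NIT2, a nitrilase of auxin synthesis, stood at 14.04, 17.3, 21.1 and 14.7 FPKM in the flight libraries and at 41.9, 86.2, 86.5 and 115 FPKM in the ground libraries, a change of -3.18 ± 0.20 (adjusted p 6.17e-15).

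GLYI7, of the glyoxalase I family, stood at 9.61, 5.05, 13.8 and 16.7 FPKM in the flight libraries and at 45.8, 86.2, 58.3 and 113 FPKM in the ground libraries, a change of -3.68 ± 0.26. The defence-related chitinase AT2G43570 stood at 5.16, 3.70, 8.51 and 3.68 FPKM in the flight libraries and at 8.57, 15.8, 47.2 and 45.7 FPKM in the ground libraries, with ground replicates 3 and 4 highest and flight replicate 3 just under ground replicate 1. UPI, a protease inhibitor, stood at 63.001, 36.9, 36.3 and 31.1 FPKM in the flight libraries and at 87.7, 128, 159.6 and 166 FPKM in the ground libraries, a change of -2.72 ± 0.24. AT2G01021 and the mitochondrial locus ATMG00030 were among the 15 as well, with changes of -3.66 ± 1.15 (adjusted p 0.00671) and -3.12 ± 0.58 (adjusted p 2.15e-05). The rescaled limma call of AT2G01021 was lost with the 8 libraries alone (adjusted p 0.786) and with a pseudocount of 0.1 (0.101). It was also lost without both lane 4 ground libraries (0.057), and without a filter on low values it was lost on both scales. The other 7 were AT1G03106, AT4G07408, AT1G53610, AT1G29100, AT5G39520, AT4G08555 and AT1G15405, with changes of -3.55, -3.41, -3.11, -2.93, -2.86, -2.80 and -2.78 after rescaling. Of these 7, AT1G29100 carries a heavy metal transport domain, AT1G15405 is annotated as a non-coding RNA, and the rest are uncharacterized or hypothetical proteins.

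**Figure D4:**
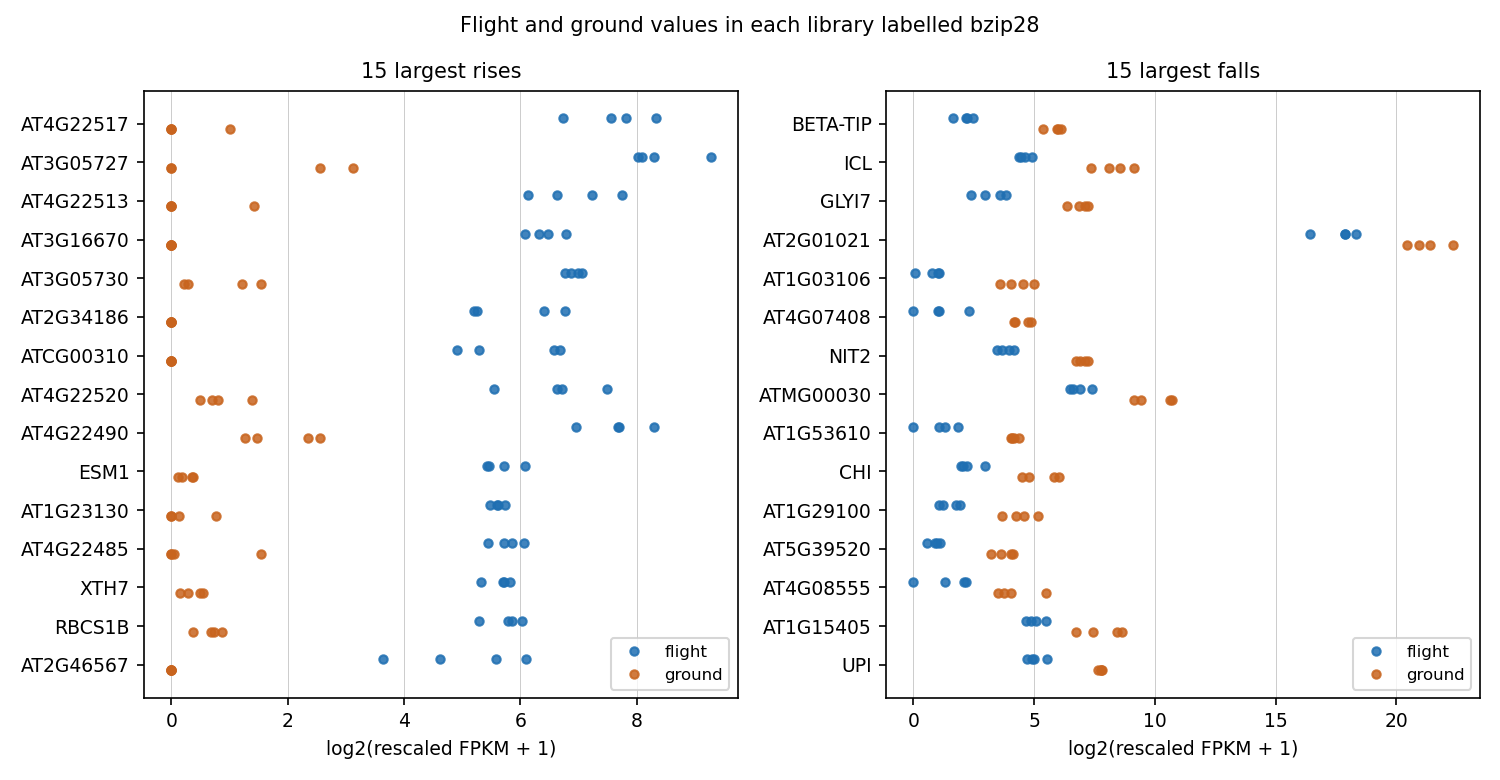
Values in each of the 8 libraries, as log2(rescaled FPKM + 1), of the 15 largest rises (left) and the 15 largest falls (right) among genes called on both scales. Blue points are flight and orange points ground libraries, 4 each. The 2 colours do not overlap in any gene, as the selection required, and 4 rising genes are at 0 in every ground library.

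Of 19 expansins and xyloglucan enzymes tested, 17 rose, beside 35.1% of all genes, and none fell. Their median log2 change was 2.89 as deposited and 2.06 after rescaling. XTH19, of the same enzyme family as XTH7, stood at 97.3, 69.3, 63.6 and 66.8 FPKM in the flight libraries and at 0.708, 0.594, 1.34 and 1.61 FPKM in the ground libraries, a rise of 4.49 ± 0.21 after rescaling. XTH4 stood at 350.2, 325, 247 and 229 FPKM in the flight libraries and at 8.95, 11.1, 17.1 and 18.6 FPKM in the ground libraries, a rise of 3.30 ± 0.15, and EXPA11, an expansin that loosens walls under acid, rose by 3.27 ± 0.32. No flight value of these 3 genes was near a ground value, and the adjusted p-values were 1.97e-18, 7.36e-19 and 1.26e-10. XTH24 passed in opposite directions on the 2 scales (0.65 and -0.40), and TCH4 did not pass after rescaling (0.31). Among cellulose synthases and lignin enzymes 7 of 14 rose, beside 35.1% of all genes. These included CCoAOMT1 (0.89), PAL2 (0.73), PAL1 (0.71) and C4H (0.52), all of the phenylpropanoid and lignin pathway, while the secondary wall synthase IRX3 had a rescaled change of -0.21.

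Auxin-responsive genes rose in 10 of 12 tested, beside 35.1% of all genes, with medians of 1.93 and 1.11 beside 0.97 and 0.10 for all tested genes. SAUR23 (24.2, 24.4, 18.4 and 19.04 FPKM in flight and 0, 0.781, 1.36 and 1.77 FPKM on the ground) rose by 3.06 ± 0.32, SAUR22 by 2.94 ± 0.34 and SAUR19 by 2.25 ± 0.36 after rescaling; these promoters of cell expansion are close copies of each other. The repressor gene IAA19 rose by 1.62 ± 0.22, whereas WES1, which conjugates auxin, had 0.47 and -0.55. Of 8 cell cycle genes 7 rose, beside the same 35.1%, with medians of 1.95 and 1.20. The replication clamp PCNA1 stood at 13.6, 14.1, 14.1 and 12.8 FPKM in the flight libraries and at 1.03, 0.475, 1.39 and 1.50 FPKM in the ground libraries, a rise of 2.12 ± 0.19. SYP111, a fusion protein of the forming cell plate, rose by 1.52 ± 0.16. All 11 genes of cytosolic ribosomal proteins rose, again beside 35.1%, with medians of 1.89 and 0.85. RPL23AA stood at 395, 336, 338 and 357 FPKM in the flight libraries and at 39.4, 60.4, 87.1 and 91.4 FPKM in the ground libraries, a rise of 1.37 ± 0.11.

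Markers of seed, root and shoot epidermis were checked against the label of whole seedlings. In bulk RNA, fewer cells of a type and less RNA per cell cannot be told apart. Of 14 genes of seed storage and late embryogenesis, 12 were too low to be tested, and their highest values were 3.71 FPKM for CRA1 and 1.16 FPKM for OLEO2, both in ground replicate 3. Summed after rescaling, the 14 reached 6.08 to 7.67 in flight and 9.41 to 19.7 on the ground. Of 11 shoot epidermis and cuticle genes 7 rose, beside 35.1% of all genes, and their summed rescaled level was 532 to 682 in flight and 212 to 253 on the ground. PDF1, an epidermal cell wall protein, stood at 166, 185, 137 and 123 FPKM in the flight libraries and at 3.18, 6.45, 7.96 and 12.1 FPKM in the ground libraries, a rise of 3.33 ± 0.23, and LP1, a lipid-transfer protein, rose by 3.23 ± 0.34. The stomatal lineage genes SPCH (-0.23) and FMA (-0.45) and the wax gene CER1 (-0.66) did not rise after rescaling.

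Of 15 root genes 9 were tested, 5 rose, beside 35.1% of all genes, and 1 fell, beside 1.88%. CASP2 and CASP1, which build the Casparian strip of the endodermis, rose by 0.87 ± 0.21 and 0.64 ± 0.23. The rescaled call of CASP1 was lost without flight replicate 1 (adjusted p 0.0761) or 3 (0.0629) and without both lane 4 ground libraries (0.0712). TIP2;3, a root vacuolar aquaporin, fell, at 164, 126, 131 and 117 FPKM in the flight libraries and at 156, 199.9, 263 and 319.8 FPKM in the ground libraries and with a rescaled change of -1.80 ± 0.18. TIP2;3 had the highest level in the list, and the summed rescaled level was 291 to 377 in flight and 473 to 560.5 on the ground. The part of organ proportions in the other results was not tested. Without both lane 4 ground libraries 3 root genes, in place of 5, were higher after rescaling, beside 5952 of all genes, in place of 6740.

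Both groups were labelled as dark-grown. Of 26 nuclear genes of photosynthesis tested, 23 rose, beside 35.1% of all genes, and none fell, with medians of 2.44 as deposited and 1.43 after rescaling, beside 0.97 and 0.10. RBCS2B stood at 445, 446, 582 and 588 FPKM in the flight libraries and at 18.5, 37.3, 34.1 and 74.5 FPKM in the ground libraries, a rise of 2.74 ± 0.24 (adjusted p 2.06e-11). GAPB, of the Calvin cycle, stood at 52.3, 60.2, 69.4 and 67.9 FPKM in the flight libraries and at 2.04, 3.81, 4.35 and 7.39 FPKM in the ground libraries, a rise of 2.73 ± 0.21, and PSAK, of photosystem I, rose by 2.27 ± 0.24. In each of the 3 the highest ground library was replicate 4. The Rubisco and light-harvesting genes are families of similar copies, so the values of single members are uncertain. The 3 members that did not rise were LHCB2.1 (0.19), LHCB2.2 (0.42) and LHCB4.1 (0.11), called higher as deposited alone.

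Of 10 chlorophyll synthesis genes 7 rose, beside 35.1% of all genes. CHLI1, a subunit of magnesium chelatase, stood at 57.97, 65.1, 80.7 and 73.3 FPKM in the flight libraries and at 3.07, 6.71, 8.78 and 9.15 FPKM in the ground libraries, a rise of 2.27 ± 0.18. GUN5 (1.59) and ALB1 (0.69), the other 2 chelatase subunits, and G4, chlorophyll synthase (1.48), rose too. PORA, the protochlorophyllide reductase that is abundant in darkness, had -0.03 as deposited and -0.99 after rescaling. Of 11 light signalling genes 6 rose, beside the same 35.1%, led by PIL1 at 71.6, 79.6, 72.2 and 92.4 FPKM in the flight libraries and at 2.08, 2.65, 3.55 and 6.40 FPKM in the ground libraries, a rise of 3.28 ± 0.20, and by HB-2, a shade-response factor (1.07). PHYA (-0.05) and HY5 (0.16) did not pass after rescaling.

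Of 133 plastid-encoded loci listed, 94 were tested and 58 rose, beside 35.1% of all genes, with medians of 2.28 and 1.24, and their summed rescaled level was 38148 to 73551 in flight and 17034 to 31666 on the ground. Some calls rested on listed zeros: ATCG00390 was at 450.3, 431, 403 and 509 FPKM in flight, and on the ground at 160.6 FPKM in replicate 1 and at 0 in the others, so that its rescaled values overlapped. Mitochondrial loci gave another picture. Of 146 listed, 61 were tested, none rose and 9 fell, beside 1.88% of all genes. As deposited 10 were called higher, beside 82.2% of all genes, and after rescaling 25 were called lower, beside 24.2%. Without ground replicate 2 the 9 called lower as deposited became 4. Over all genes, leaving out each library in turn gave 251 to 538 lower as deposited. Their summed rescaled level was 1549 to 2405 in flight and 5889 to 15386 on the ground. ATMG00020 stood at 613, 994, 932 and 957 FPKM in the flight libraries and at 3010.3, 3707, 2124 and 2183 FPKM in the ground libraries, a change of -2.69 ± 0.49 (adjusted p 1.64e-05). The lane 4 ground libraries, replicates 1 and 2, were highest for it, and without both the mitochondrial loci called lower after rescaling went from 25 to 10. All genes called lower after rescaling went from 4650 to 4175.

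Of 18 genes of dark and starvation response 6 fell, beside 1.88% of all genes, and 1 rose, beside 35.1%. The medians were -0.46 as deposited and -1.43 after rescaling, where 17 were called lower, beside 24.2% of all genes. DIN2, a beta-glucosidase induced by sugar depletion, stood at 19.8, 11.1, 32.7 and 35.2 FPKM in the flight libraries and at 43.8, 73.2, 68.8 and 114 FPKM in the ground libraries, a change of -1.61 ± 0.32 as deposited (adjusted p 2.77e-05) and -2.64 ± 0.24 after rescaling (adjusted p 2.94e-11). BCAT-2 (58.3, 40.9, 75.6 and 79.4 FPKM in flight and 100.4, 141, 117 and 215 FPKM on the ground), BCE2 (-1.67 after rescaling) and MCCA (-1.64), which break down branched-chain amino acids, fell as well. BCAT-2 and DIN2 did not overlap between the groups, while the deposited values of MCCA and BCE2 did. The deposited call of MCCA was lost without flight replicate 2 (adjusted p 0.105) or ground replicate 4 (0.162). The member that rose was DIN11 (0.90 after rescaling). ASN1, asparagine synthetase, had -0.68 and -1.72. With the 8 libraries fitted alone 3 members were lower as deposited, and without ground replicate 1 there were 10. All genes lower as deposited then numbered 268 and 538, in place of 361.

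Of 15 genes of seed oil breakdown and the glyoxylate cycle 2 fell, beside 1.88% of all genes, and none rose, beside 35.1%. Those that fell were ICL and MLS, malate synthase. MLS stood at 2.38, 2.17, 2.79 and 3.04 FPKM in flight and at 3.0994, 4.93, 4.02 and 6.17 FPKM on the ground, a change of -1.44 ± 0.15 after rescaling. ICL and MLS are the enzymes particular to the cycle by textbook knowledge. The 13 others were not called in the same direction on both scales, the median was 0.26 as deposited and -0.75 after rescaling, and PCK1 had 1.10 and 0.06. Of 6 senescence genes 2 fell, beside 1.88% of all genes, NAP (-2.20) and WRKY6 (-1.40), and SAG101 rose (0.36), beside 35.1%. The deposited call of WRKY6 was lost with lane as a term (adjusted p 0.222), with the 8 libraries alone (0.0536), and without flight replicate 2 (0.0621), flight replicate 3 (0.0538), ground replicate 3 (0.0962) or ground replicate 4 (0.104). The rescaled call of SAG101 was lost without flight replicate 2 (adjusted p 0.0716), ground replicate 2 (0.061) or both lane 4 ground libraries (0.21). SAG12, which marks late senescence, was listed at 0 in all 8 libraries.

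Of 12 hypoxia genes tested 9 rose, beside 35.1% of all genes, with medians of 2.08 and 1.16. HB1, a haemoglobin that scavenges nitric oxide, stood at 162, 180.2, 121 and 179 FPKM in the flight libraries and at 12.001, 10.1, 17.569 and 18.7 FPKM in the ground libraries, a rise of 2.39 ± 0.30 after rescaling. ACO1, of ethylene synthesis (2.49), FTM1 (2.36) and ADH1, alcohol dehydrogenase (1.18), rose too. The low-oxygen markers AT5G15120 (-0.13), AT5G39890 (0.18) and LBD41 (-0.24) were higher as deposited, but after rescaling the first 2 did not pass and LBD41 was called lower. Of 12 genes of touch and gravity 10 rose, beside the same 35.1%, with medians of 1.62 and 0.77. They included PGM, needed for the starch that sediments in gravity sensing (1.25), the mechanosensitive channels MSL10 (1.11) and MCA2 (1.10), and LAZY1 (AT5G14090, 1.56). MSL10 stood at 11.9, 8.83, 10.5 and 10.7 FPKM in the flight libraries and at 1.75, 1.75, 2.12 and 2.40 FPKM in the ground libraries.

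Of 12 cytosolic heat shock genes 2 rose, beside 35.1% of all genes, HSP101 (0.67) and HSFA3 (0.94). HSP101 stood at 9.66, 10.05, 14.3 and 23.97 FPKM in the flight libraries and at 2.82, 4.02, 4.04 and 4.98 FPKM in the ground libraries, and flight replicate 4 was highest. Its rescaled values, 6.94 to 19.1 in flight and 5.61 to 7.09 on the ground, overlapped. The list's summed rescaled level was 128 to 302 in flight and 201 to 283 on the ground. Without flight replicate 4 the members higher as deposited went from 9 to 5. Over all genes, leaving out each library in turn gave 14373 to 16394 higher as deposited. The rescaled limma call of HSP101 was lost without flight replicate 4 (adjusted p 0.0858) and with the 8 libraries alone (0.0586). Of 15 enzymes of reactive oxygen 4 rose, beside 35.1% of all genes, and none fell, while 8 were called lower after rescaling, beside 24.2% of all genes. Without ground replicate 1, or without both lane 4 ground libraries, 6 members were lower as deposited, in place of 0. All genes lower as deposited then numbered 538 and 651, in place of 361. FSD1, an iron superoxide dismutase, stood at 2130.3, 1759, 1332 and 1719 FPKM in the flight libraries and at 106, 111, 155 and 193 FPKM in the ground libraries, a rise of 2.59 ± 0.20, while CSD1, a copper and zinc form, had -0.40 and -1.44 and the catalase CAT2 had -0.27 and -1.31. Of 10 aquaporins tested 2 rose, DELTA-TIP (1.70) and PIP3 (0.36), beside 35.1% of all genes. The 1 that fell, beside 1.88% of all genes, was BETA-TIP, already given. The rescaled call of PIP3 was lost without flight replicate 3 (adjusted p 0.0748), ground replicate 3 (0.0714) or both lane 4 ground libraries (0.0703).

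Counts in the hormone and clock lists stand beside 35.1% of all genes that rose and 1.88% that fell. Of 10 abscisic acid and drought genes 1 rose, RD22 (2.08), and RAB18 had -0.50 and -1.12. Of 7 salicylate and defence genes 3 rose and 2 fell. EDS16, of salicylate synthesis, rose by 1.79 ± 0.26. PR5 stood at 4.81, 2.26, 3.60 and 4.30 FPKM in flight and was listed at 0 on the ground, and PR1 was at most 0.0454 FPKM. WRKY70 (-1.85) and LURP1 (-1.32) fell, the latter's deposited call being lost without ground replicate 3 (adjusted p 0.0833). Of 8 jasmonate genes JAZ5 rose (0.73) and CYP94B3, which inactivates the hormone, fell (-1.65). Of 11 ethylene and gibberellin genes 4 rose, led by GASA6 (2.26) and GA3OX1, of gibberellin synthesis (1.39). Of 10 clock genes LHY alone rose (0.96). Without both lane 4 ground libraries the members higher as deposited went from 5 to 3 for salicylate, from 6 to 2 for jasmonate, from 9 to 4 for ethylene and gibberellin and from 7 to 3 for the clock. Without ground replicate 1 alone the clock count was 4. All genes higher as deposited went from 15777 to 12393 without both libraries and to 14373 without ground replicate 1.

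**Figure D5:**
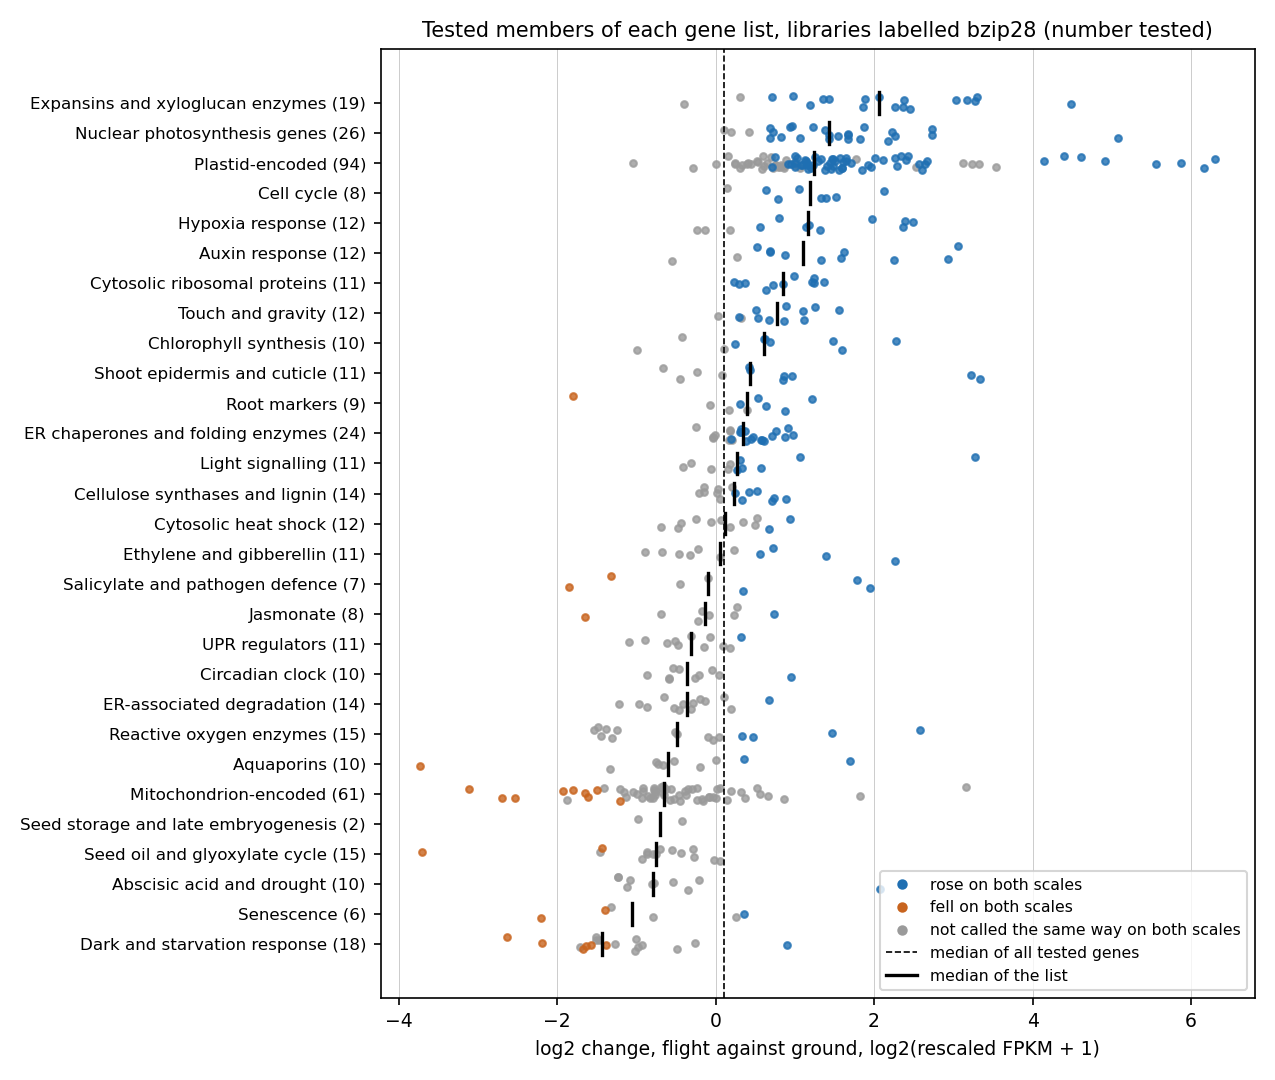
Log2 change of every tested member of the 27 gene lists and of the plastid and mitochondrial loci, flight against ground on the log2(rescaled FPKM + 1) scale. Blue members rose and orange members fell on both scales, solid bars are list medians and the dashed line is the median of all tested genes, 0.10. Expansins and xyloglucan enzymes have the highest median, 2.06, and dark and starvation genes the lowest, -1.43.

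Across the 19186 tested genes the rescaled log2 changes in the libraries labelled bzip28 and in WT had a Pearson correlation of 0.902; they share no library, but share the runs and the AT2G01021 difference, and genes are not independent replicates. Of the 6740 genes that rose, 5768 also rose in WT (85.6% of these and 84.6% of the 6818 that rose in WT). Of the 361 that fell, 283 also fell in WT (78.4%, and 47.8% of the 592 that fell in WT). The list medians in WT after rescaling were 2.00 for expansins and xyloglucan enzymes, 1.83 for photosynthesis, -1.71 for dark and starvation response and 0.13 for ER chaperones. The bzip28 medians of the same lists were 2.06, 1.43, -1.43 and 0.35, and the differences between these medians were not tested.

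Few genes passed the test of the difference itself. For the bzip28 response minus the WT response, 1 gene was higher (0.00521%) and 3 were lower (0.0156%) on both scales in limma, 6 were higher after rescaling alone or on both (0.0313%), while 575 as deposited and 1506 after rescaling had an unadjusted p under 0.05. For the bzip28 response minus the mean of the other 4 genotypes, 1 was higher (0.00521%) and 2 lower (0.0104%), with 3056 and 1585 at an unadjusted p under 0.05. The gene higher in the second test was BZIP28, whose response exceeded the mean of the others by 1.10 ± 0.19 (SE) as deposited (adjusted p 0.0131) and by 0.73 ± 0.11 after rescaling (adjusted p 0.00269). Against WT alone its difference was 1.23 (adjusted p 0.0627) and 1.08 (adjusted p 0.000123). The deposited call was lost with lane as a term (adjusted p 0.125), without both lane 4 ground libraries (0.206) and without flight replicate 3 (0.0658), flight replicate 4 (0.135), ground replicate 1 (0.0842) or ground replicate 3 (0.0704). With lane as a term the rescaled call was lost too (adjusted p 0.0618). The deposited difference from WT passed without flight replicate 2 (adjusted p 0.0275) or ground replicate 4 (0.0022).

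The other 4 genes were low in the libraries labelled bzip28, under 5 FPKM, and fell outside the rule for named genes. They are named because the counts are small, and were chosen after their values were seen. AT1G44835, which encodes a protein with a YbaK domain, stood at 0.276, 0.198, 0.251 and 0.299 FPKM in flight and at 0.118, 0.0804, 0.0444 and 0.242 FPKM on the ground. In WT it averaged 14.9 ± 2.36 FPKM in flight and 3.71 ± 1.00 FPKM on the ground (SD, n = 4), and the other 3 mutant lines resembled WT, bzip28bzip60 with 14.7 and 5.19 FPKM included. Every library labelled bzip28 was at most 0.299 FPKM, and the response differed from that of WT by -0.96 ± 0.15 after rescaling (adjusted p 0.00131). AT1G33950, of the AIG1 family, stood at 0.919, 1.05, 0.635 and 1.25 FPKM in flight and at 0 on the ground, against 6.07 ± 0.737 FPKM in WT flight (difference -1.60 ± 0.20 after rescaling, adjusted p 6.05e-05). CYP79F1, of aliphatic glucosinolate synthesis, averaged 2.50 ± 0.634 FPKM in flight against 7.05 ± 1.05 FPKM in WT flight, but the other mutants averaged 2.47 to 2.81 FPKM. It was listed at 0 in every ground library labelled bzip28, and the difference from WT was -1.06 ± 0.20 (adjusted p 0.0139). XTH11 averaged 1.58 ± 0.423 FPKM in flight and 1.55 ± 0.470 FPKM on the ground, whereas WT averaged 1.62 and 8.999 FPKM, a difference of 1.92 ± 0.31 after rescaling (adjusted p 0.00199). With a pseudocount of 0.1 in place of 1, none (0) of AT1G44835, AT1G33950 and CYP79F1 passed as lower on either scale, against WT or against the mean of the others.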

How the data were processed

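The values are FPKM as the authors deposited them, for 34133 loci, and the 40 columns were matched to samples by column name and title. Per the submitters' processing notes, FastQC 0.11.5, cutadapt 1.8.1, Bowtie2 2.2.4, TopHat2 2.0.14 and Cufflinks 1.3.0 were used with TAIR10. Per the labels' protocols, library preparation kept strand and selected messenger RNA. Depth is unknown: between replicate pairs at most 1.96% of low genes shared a common ratio, so whole reads were not recovered, and precision rests on 4 libraries a group.

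Genes with a mean of at least 1 FPKM over the 40 libraries were tested on log2(FPKM + 1), as deposited and after median-ratio rescaling, with a limma 3.58.1 model of 10 group means and a mean-variance trend (R 4.3.3, 30 residual degrees of freedom). On simulated data for bzip28 flight against ground over 19186 genes, the rescaled fit recovered 90 of 100 genes changed by a log2 of 1 and 99 of 100 changed by 2, with 12 false calls. The deposited fit recovered 52 and 99, with 16924 false calls. Unchanged genes had been set equal on the rescaled scale, and each library was then multiplied by its own median-ratio factor. The false calls of the deposited fit follow from that construction, so these counts do not compare the scales. Only 100 of the 19186 genes were changed by each amount there. In the libraries labelled bzip28, 35.1% of genes were called higher and 24.2% lower after rescaling. Recovery with that many changed genes was not tested, and which scale suits these libraries was not tested either. The rescaled values hold only if a majority of genes kept their level. The genes called higher or lower after rescaling outnumber those not called, so the calls do not meet this condition. Named genes were the 15 largest rescaled changes in each direction among genes called on both scales, with a mean of at least 5 FPKM in a group and no overlap on either scale. Up to 4 called members a list, every regulator and ER chaperone, and the disrupted genes were added. A gene named for another reason was chosen after its values were seen. The members and the 27 lists of 367 genes, 328 of them tested, were chosen with earlier results of these data known. Alternatives were another pseudocount, no filter, another scaling, lane as a term, the 8 libraries alone with and without a replicate block, and leaving out libraries. Gene names and sequences are from RefSeq TAIR10.1, which named 31510 loci. Python 3.11.15 and matplotlib 3.10.9 drew the figures. The values of 1 root gene are not reported here.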

Additional observations from a re-analysis of the deposited data

Results flagged for a closer look

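In groups of 4 libraries, a library was picked out where its gap to the nearest other, divided by the range of the group, exceeded Dixon's critical value for a group of that size. Of 302 groups examined 19 met this, and chance picks about 1 in 20. Most of these are single libraries in otherwise tight groups. In flight, replicate 1 was lowest for BZIP60 (ratio 0.903), ATMG00020 (0.836) and ATMG01390 (0.842), and highest for EBS1 (0.9198), SDF2 (0.8696), AT3G05727 (0.867), NAC062 (0.864) and XTH19 (0.833). Flight replicate 2 was highest for PCNA2 (0.842) and lowest for CNX1 (0.834). Flight replicate 3 was highest for AT5G07340 (0.884) and ATMG00516 (0.9009). On the ground, replicate 4 was highest for AT4G22485 (0.991), and it alone stood above 0 for AT4G22513, AT4G22517 and ATCG00320, a ratio of 1.0 each. ATCG00390 in replicate 1 and ATCG00410 in replicate 3 stood alone above 0 in the same way, also with 1.0. Replicate 1 was lowest for RBCS1B (0.972).

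The response to flight differed between genotypes, by a test of the difference itself, for 5 genes. After rescaling, the response in the libraries labelled bzip28 minus that in WT was -1.06 (log2) for CYP79F1, -1.60 for AT1G33950, -0.96 for AT1G44835 and 1.92 for XTH11. Against the mean of the other 4 genotypes it was -0.84 for AT1G33950 (adjusted p 0.0316), -0.80 for AT1G44835 (adjusted p 0.00145) and 0.73 for BZIP28 in the limma fit. With a pseudocount of 0.1 no gene (0) was lower on either scale in either test, so the calls of CYP79F1, AT1G33950 and AT1G44835 depended on the pseudocount. AT1G33950 and CYP79F1 were listed at 0 in all 4 ground libraries labelled bzip28, and AT1G44835 was at most 0.299 FPKM in all 8.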

How the results depend on the processing

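Of 4234 values of single genes under the alternatives, 4119 kept their direction and side of the threshold, 81 lost the call, 13 gained it and 21 changed sign. Those 21 were values near 0, none called: with lane as a term BZIP60 as deposited (0.0027) and ERO2 after rescaling (0.0019); with nuclear total scaling ERO2 (0.059), PDIL1-3 (0.091), AT5G07340 (0.069) and AT4G20310 (0.0046); without both lane 4 ground libraries NAC089 as deposited (-0.24) and P58IPK (-0.039) and NAC103 (-0.16) after rescaling. Leaving out each library gave -0.25 to 0.078 for BZIP60 and -0.11 to 0.17 for NAC089 as deposited, and after rescaling -0.092 to 0.085 for ERO2, -0.17 to 0.077 for PDIL1-3 and -0.098 to 0.063 for AT5G07340. Leaving out both lane 4 ground libraries, added after seeing the data, gave 651 genes lower as deposited and 649 that fell, 0 higher than in WT as deposited and 16 lower after rescaling, 0 higher and 1 lower than the other genotypes as deposited, and 0.88 for the bZIP28 difference. With lane as a term 238 genes were lower as deposited and 238 fell, 235 of them shared; against WT 10 were higher after rescaling; against the others 1 was lower on each scale and 0 higher after rescaling, and bZIP28 gave 1.00 and 0.65. With a pseudocount of 0.1 no gene (0) was lower than in WT or than the others on either scale, which took the calls of AT1G44835, AT1G33950 and CYP79F1, 7 were higher than the others as deposited, and the rescaled median was 0.12. Without a filter 4 were higher than in WT as deposited and 5 lower than the others after rescaling. Nuclear total scaling gave a rescaled median of 0.19. With the 8 libraries alone bZIP28 gave 0.32 (limma adjusted p 0.136); with the replicate block it gave 0.32 (0.138), 5533 genes rose (5452 shared) and 272 fell (253 shared). Same-numbered flight and ground samples labelled bzip28 share a position code in their titles. Its meaning is not given, so the samples may be paired. Correlations of same-numbered deviations were -0.0305 to 0.089, and 1 of 4 flight and 2 of 4 ground libraries correlated best with their own number. With 4 libraries a group, these correlations cannot show whether the samples were paired. Leaving out each library gave 6355 to 6528 rises, 250.0 to 536 falls, 0.19 to 0.42 for rescaled bZIP28, 0.99 to 1.43 and 0.95 to 1.18 for its difference from WT, and 0.87 to 1.31 and 0.60 to 0.84 from the others. The counts then ran, higher and lower, from 1 to 3 and 2 to 4 against WT as deposited, 4 to 9 and 2 to 10 rescaled, 0 to 6 and 1 to 3 against the others as deposited, and 2 to 10 and 1 to 7 rescaled. The cause was not tested. Of 1682 list counts 1554 stayed within 1.5 times. Depth is unknown, so values near 0 cannot be given a limit.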

Other observations

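Genes of aliphatic glucosinolate synthesis, which make defence compounds from methionine, were not in the lists and were collected after the values had been seen, so no test of them as a group is given. Of 18 genes 17 were tested, and each rose on both scales, beside 35.1% of all genes. Their median log2 change was 3.65 as deposited and 3.21 after rescaling, beside 0.97 and 0.10 for all tested genes. MAM1, which lengthens the methionine chain, stood at 41.2, 35.5, 33.9 and 34.004 FPKM in the flight libraries and at 0.149, 0.050043, 0.757 and 0.158 FPKM in the ground libraries, a rescaled change of 4.42 ± 0.15. CYP83A1, which oxidises the aldoximes made by CYP79F1, stood at 20.1, 18.8, 18.5 and 16.7 FPKM in the flight libraries and at 0.166, 0, 0.104 and 0.220 FPKM in the ground libraries, a change of 3.71 ± 0.13. MYB28, the main regulator of the pathway, stood at 16.1, 14.3, 14.4 and 14.2 FPKM in the flight libraries and at 0, 0.109, 0.124 and 0.192 FPKM in the ground libraries, a change of 3.47 ± 0.12. In all 3 the groups were far apart. The smallest change was that of IIL1 (0.41), and MYB29 was not tested, with at most 0.0804 FPKM. SEP3, a MADS-box factor of flower development, was also picked after its values were seen. It stood at 26.7, 27.6, 31.3 and 28.1 FPKM in the flight libraries and at 0, 0, 0 and 0.0415 FPKM in the ground libraries, a change of 4.54 ± 0.16 after rescaling, so it was present in every flight library and at or near 0 on the ground.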
